A study of Homo sapiens with 9 samples.

Results

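The miR-29 family is represented by 4 of the 1485 miRNA hairpins counted in this study: hsa-mir-29a, hsa-mir-29b-1, hsa-mir-29b-2 and hsa-mir-29c, taken by name from the deposited count table. The libraries profiled small RNAs after siRNAs against ERH, a small nuclear protein known to bind DGCR8, the RNA-binding subunit of the Microprocessor that cuts miRNA hairpins out of their primary transcripts. HEK293E, a line descended from human embryonic kidney cells, was lipofected on days 0 and 3 and collected on day 5. Replicates 1 and 2 each have a siGFP, a siControl and a siERH-3 library, and siERH-5 was used in replicate 2 alone. In K562, a leukaemia line with erythroid features, cells were electroporated with siGFP or siERH-5 and collected 4 days later, with 1 library each. The labels name no further genotype or treatment for either line. The labels do not say whether replicates were separate cultures, so p-values measure the spread between these libraries, which may be technical.

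The 9 libraries held 2609929 to 3320017 hairpin counts. ERH mRNA was not measured, so the depletion of the target was not checked here. The erythroid hairpins hsa-mir-144 and hsa-mir-451a stood at 16.3 to 32.6 reads per 1000000 hairpin counts (RPM) across the HEK293E libraries and at 7903 to 23100 RPM in K562, so these markers were high in the line labelled K562.

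miR-29 miRNAs lower the output of many extracellular matrix genes, among them collagens, and of the DNA methyltransferases DNMT3A and DNMT3B. The anti-apoptotic protein MCL1 is another known target, and the family is well known for its fall in fibrotic tissue and in some leukaemias. Its members come from a pair of clusters, each a single primary transcript with a 29b hairpin upstream of a 29a or 29c hairpin.

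The mature 3p miRNAs are shown because their shared seed, bases 2 to 8, defines the family and because their likeness limits what the counts can separate. Sequences are from RefSeq (GRCh38.p14), 5′ to 3′, with the seed in capitals.
hsa-miR-29a-3p: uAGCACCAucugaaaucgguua
hsa-miR-29b-3p: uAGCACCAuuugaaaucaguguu
hsa-miR-29c-3p: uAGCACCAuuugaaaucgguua
The seed AGCACCA occurred in 3 of the 2370 mature miRNA names of the RefSeq table, all of them in this family. Counted from 1 at the 5′ end, 29a differs from 29c by C10U alone, with 21 of 22 bases identical. From 29c to 29b the changes are G18A, U21G and A22U, with 19 of 22 aligned bases identical. miR-29b-3p ends in AGUGUU, a hexamer known for directing it to the nucleus. That ending was found in 2 of the mature names, the other being hsa-miR-519e-3p.

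The 4 hairpins are shown in full, with the 3p arm in capitals, because the 29b copies differ only outside that arm.
hsa-mir-29b-1: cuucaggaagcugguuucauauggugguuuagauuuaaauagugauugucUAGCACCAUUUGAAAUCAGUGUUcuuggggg
hsa-mir-29a: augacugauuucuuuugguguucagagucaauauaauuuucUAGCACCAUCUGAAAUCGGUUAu
hsa-mir-29b-2: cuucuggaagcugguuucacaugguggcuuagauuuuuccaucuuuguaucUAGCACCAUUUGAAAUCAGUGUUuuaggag
hsa-mir-29c: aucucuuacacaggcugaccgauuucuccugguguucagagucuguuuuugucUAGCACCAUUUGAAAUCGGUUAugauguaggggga
In GRCh38, on the minus strand, MIR29B1 lies at chr7:130877459-130877539, wholly within an exon of the long non-coding RNA LINC-PINT. MIR29A follows it downstream at chr7:130876747-130876810, with 712 bases between their starts. It overlaps that exon's end by 2 bases, and both hairpins lie in an intron of AC016831.6. MIR29B2 at chr1:207802443-207802523 and MIR29C at chr1:207801852-207801939, with starts 591 bases apart and also on the minus strand, both lie in exons of their host gene MIR29B2CHG. Hairpin GC content was 32.8% for 29a, 39.5% for each 29b copy and 44.3% for 29c. The trinucleotide UGU, a motif known to favour DGCR8 binding when it sits in the apical loop, was present between the mature arms of 29b-1, 29b-2 and 29c. It was not found there in 29a. Of 739 hairpins with both arms in RefSeq, 33.7% held it between the arms.

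The 29b rows carried nearly the same number in every library. The count of 29b-1 was 0.980 to 1.00 times that of 29b-2 across the 9 libraries, and the largest gap was 189 counts, where the smallest 29b row held 3805. How reads that fit both copies were assigned is not given in the sources used here, so the rows are not independent and the locus of the 29b reads cannot be told apart. Reads of 29a and 29c differ at a single base, and the mismatches allowed in alignment are likewise not given.

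In HEK293E control libraries hsa-mir-29a was the highest of the family and was the 47th to 56th most counted hairpin. With siGFP it stood at 6360 RPM in replicate 1 and 5210 RPM in replicate 2, and with siControl at 5432 and 4808 RPM. The other members lay close together: 3787 ± 293 RPM for 29c, 3740 ± 651 RPM for 29b-2 and 3685 ± 657 RPM for 29b-1 (SD, n = 4). These 3 means differed by less than the spread of the 29b rows, while 29a (5453 ± 658 RPM) was above all other members in each of the 4 libraries. Counting 29b once, the family made up 1.22 to 1.36% of all hairpin counts in the controls.

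hsa-mir-29c and hsa-mir-29a were lower in the siERH libraries, and the 29b rows did not pass the test. For 29c, the control libraries of replicate 1 held 3437 RPM (siGFP) and 3679 RPM (siControl), against 1924 RPM with siERH-3. In replicate 2 the controls held 3923 RPM (siGFP) and 4110 RPM (siControl), against 2282 RPM with siERH-3 and 2059 RPM with siERH-5. The groups did not overlap. Over the hairpins tested, 11.4% had all siERH libraries below all controls in RPM and 30.7% had them all above. By edgeR (quasi-likelihood, p adjusted by Benjamini-Hochberg over all hairpins tested) 29c changed by -1.06 ± 0.18 on the log2 scale (SE; adjusted p = 0.00114), 2.08-fold lower in the 3 siERH libraries than in the 4 controls.

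For 29a, the siERH libraries held 3787 RPM (siERH-3, replicate 1), 3549 RPM (siERH-3, replicate 2) and 4447 RPM (siERH-5, replicate 2), all below the lowest control of 4808 RPM. The siERH-5 library was the closest to the controls. On CPM scaled by edgeR's TMM factors the gap was wider, with 5606 to 5902 in the controls and 3362 to 4098 in the siERH libraries. Its log2 change of -0.66 ± 0.14 (SE; edgeR adjusted p = 0.00506) is 1.58-fold lower. Thus 2 of the 4 rows were called lower and none higher. Over the 773 hairpins tested in the same comparison, 16.2% were lower and 23.8% higher, so a lower call was the less common direction.

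In the controls, the 29b rows differed more between replicates than between siGFP and siControl. hsa-mir-29b-1 held 3224 RPM (siGFP), 3042 RPM (siControl) and 2956 RPM (siERH-3) in replicate 1. In replicate 2 it held 4411 RPM (siGFP), 4060 RPM (siControl), 3487 RPM (siERH-3) and 3940 RPM (siERH-5). The groups overlapped when the replicates were pooled, since the replicate 1 controls lay below both siERH libraries of replicate 2. The estimated log2 change was -0.30 ± 0.21 for 29b-1 and -0.29 ± 0.21 for 29b-2 (SE; edgeR adjusted p = 0.286 and 0.285). With the replicate number as a block, the estimates were -0.36 ± 0.12 for both, and both passed the threshold (edgeR adjusted p = 0.0255). That fit called 20.6% of hairpins lower and 28.1% higher. It also called 18.2% of 730 hairpins between the control siRNAs themselves, 8.36% lower and 9.86% higher in siControl.

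Within replicates, each siERH library was below both of its controls for all 4 rows, a pattern met by 15% of the hairpins tested. In replicate 1 the log2 difference of siERH-3 from its controls, on RPM, was -0.89 for 29c, -0.63 for 29a and -0.08 for 29b-1. In replicate 2 it was -0.82, -0.50 and -0.28 with siERH-3. With siERH-5 it was -0.96, -0.17 and -0.10. The 29c differences thus spanned -0.82 to -0.96 over both siRNAs. hsa-mir-29a showed its smallest difference with siERH-5, for which HEK293E has a single library and the difference between siRNAs was not tested.

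**Figure D1:**
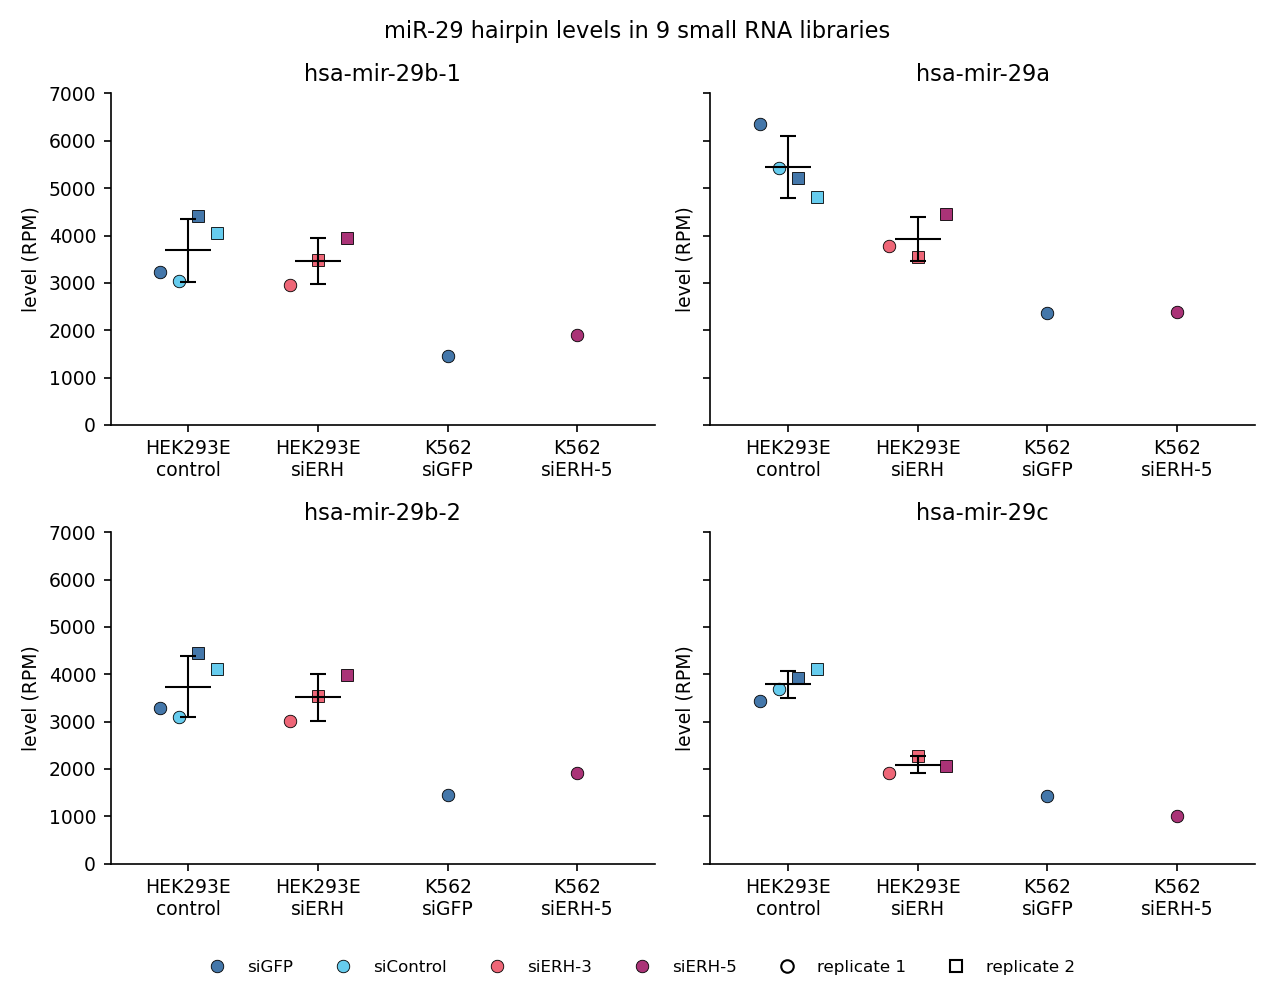
Levels of the 4 miR-29 hairpins in RPM, 1 panel per hairpin with the 29b-1 and 29a cluster above the 29b-2 and 29c cluster. Points are libraries coloured by siRNA, circles are replicate 1 and squares replicate 2, and bars give the mean and SD of the HEK293E groups (n = 4 and 3). The siERH points of 29c lie at 1924 to 2282 RPM under controls at 3437 to 4110 RPM, whereas the 29b points are split by replicate.

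The control siRNAs gave the background. Between siControl and siGFP, the log2 differences were -0.05 ± 0.23 for 29a, 0.02 ± 0.34 for 29b-1, 0.02 ± 0.34 for 29b-2 and 0.21 ± 0.28 for 29c (SE, 2 libraries each). None was called by edgeR, where 0 of 730 hairpins passed the adjusted threshold, 24 had an unadjusted p under 0.05, and DESeq2 called 4. With the replicate block the adjusted p of 29c was 0.173, the lowest of the members in that edgeR fit.

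Within the family, the share of 29c was smaller in the siERH libraries. Counting 29b once, 29c made up 26.3 to 31.5% of family counts in the 4 HEK293E controls and 19.6 to 24.3% in the 3 siERH libraries, and these ranges did not overlap. The 29b share was 25.1 to 32.8% in the controls and 34.5 to 38.1% with siERH, and the 29a share overlapped, at 36.9 to 48.6% and 37.9 to 43.5%. As a whole the family made up 0.872% (siERH-3, replicate 1), 0.938% (siERH-3, replicate 2) and 1.05% (siERH-5) of hairpin counts, each below the lowest control at 1.22%. Spike-in RNAs were added to the samples but were not used here, so each level is relative to the other hairpins.

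A ratio of neighbouring hairpins within a library does not depend on how libraries are scaled, and hairpins of a cluster share their primary transcript. The locus of the 29b reads cannot be told apart, so each 29b ratio may hold reads of both clusters. With the 29b copy of the other cluster, the siERH difference over 29c was again 0.78. Over 29a it was again 0.39. For 29b-2 over 29c, the log2 ratio was -0.07 (siGFP) and -0.25 (siControl) in replicate 1 and 0.19 (siGFP) and 0.00 (siControl) in replicate 2, so the counts were close to equal. With siERH-3 it was 0.64 in both replicates, and with siERH-5 it was 0.96. The groups did not overlap. As a share of the pair, 29b-2 made up 45.8 to 53.2% in the controls and 60.9 to 66% with siERH. The mean log2 ratio went from -0.03 ± 0.18 (SD, n = 4) to 0.75 ± 0.18 (SD, n = 3), a difference of 0.78 or 1.71-fold. All 35 ways of dividing the 7 libraries gave a two-sided exact permutation p of 0.0286, the smallest this design allows. Adjusted by Benjamini-Hochberg over 62 neighbouring pairs and the 29a to 29c ratio, the exact permutation p was 0.10. From a floor of 0.0286, the adjusted value could pass 0.05 only if most of these ratios reached the floor together. Centred on the mean of each replicate, the difference was 0.72. Permuted within replicates, it had an exact p of 0.0556, the smallest those 18 splits allow, so the blocked test cannot pass 0.05 here.

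For 29b-1 over 29a the groups overlapped. The log2 ratio was -0.98 (siGFP), -0.84 (siControl) and -0.36 (siERH-3) in replicate 1. In replicate 2 it was -0.24 with each control, -0.03 with siERH-3 and -0.17 with siERH-5. Each siERH library was above both controls of its replicate, but the controls of replicate 2 lay above the siERH-3 library of replicate 1. The difference of means was 0.39 (exact permutation p = 0.229, adjusted 0.411), made of 0.55 in replicate 1 and 0.14 in replicate 2. Centred on the replicate it was 0.30 (exact permutation p = 0.0556, the smallest of 18 splits). Of the neighbouring pairs described next, 48.4% had every siERH library on the same side of both controls of its replicate. Both miR-29 pairs did, but their 29b counts are nearly the same, so they are not separate observations.

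The decreases of 29c and 29a were compared directly through the ratio of 29a to 29c. Its log2 value was 0.52 ± 0.28 (SD, n = 4) in the controls and 0.91 ± 0.24 (SD, n = 3) with siERH. Each siERH library was above both controls of its replicate, at 0.98 against 0.56 and 0.89 in replicate 1, and at 0.64 and 1.11 against 0.23 and 0.41 in replicate 2. Pooled, the groups overlapped, and the difference of 0.39 did not pass the exact permutation test (p = 0.114, adjusted 0.257). Centred on the replicate it was 0.42 (exact permutation p = 0.111). A difference between the changes of 29c and 29a was thus not shown by these tests. Since both 29b rows hold nearly the same counts, the 29b-1 and 29b-2 ratios differ from each other only as 29a and 29c do.

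**Figure D2:**
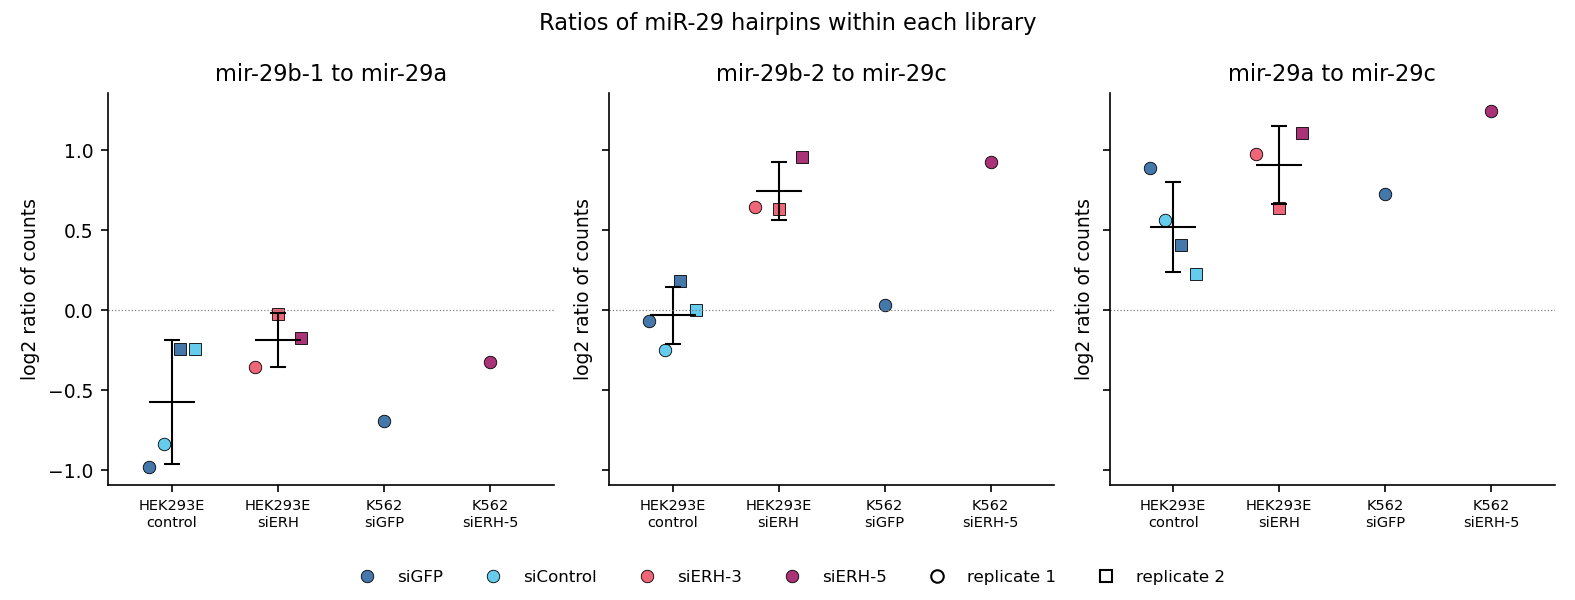
Log2 ratio of counts within each library for 29b-1 over 29a, 29b-2 over 29c and 29a over 29c. Points are libraries coloured by siRNA, circles are replicate 1 and squares replicate 2, bars give the mean and SD of the HEK293E groups (n = 4 and 3), and the dotted line marks equal counts. Only in the middle panel do the HEK293E groups stand apart, with controls at -0.25 to 0.19 and siERH libraries at 0.64 to 0.96.

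Among the 62 pairs of neighbouring hairpins within 10 kb on the same strand, each with a mean of at least 100 counts, 37.1% had groups that did not overlap. The 29b-2 and 29c pair was one of these. By the size of its change it ranked 14 of 62, where the median absolute log2 change was 0.38. In 26 of the 62 pairs a hairpin has a numbered copy with which reads may be shared, so the pairs are not independent. Some pairs are copies of one another, such as hsa-mir-941-1 over hsa-mir-941-2 at -0.01. The extremes were hsa-mir-3677 over hsa-mir-940 at -4.21 and hsa-mir-194-2 over hsa-mir-192 at 2.30. The 29b-1 and 29a pair, at 0.39, lay near the median of absolute changes. In 35 of the 62 pairs the ratio of the 5′ to the 3′ hairpin was higher with siERH, as in both miR-29 pairs. The adjusted exact permutation p was under 0.05 for 0 pairs. With a smallest unadjusted p of 0.0286, that outcome was all but fixed by the number of libraries.

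**Figure D3:**
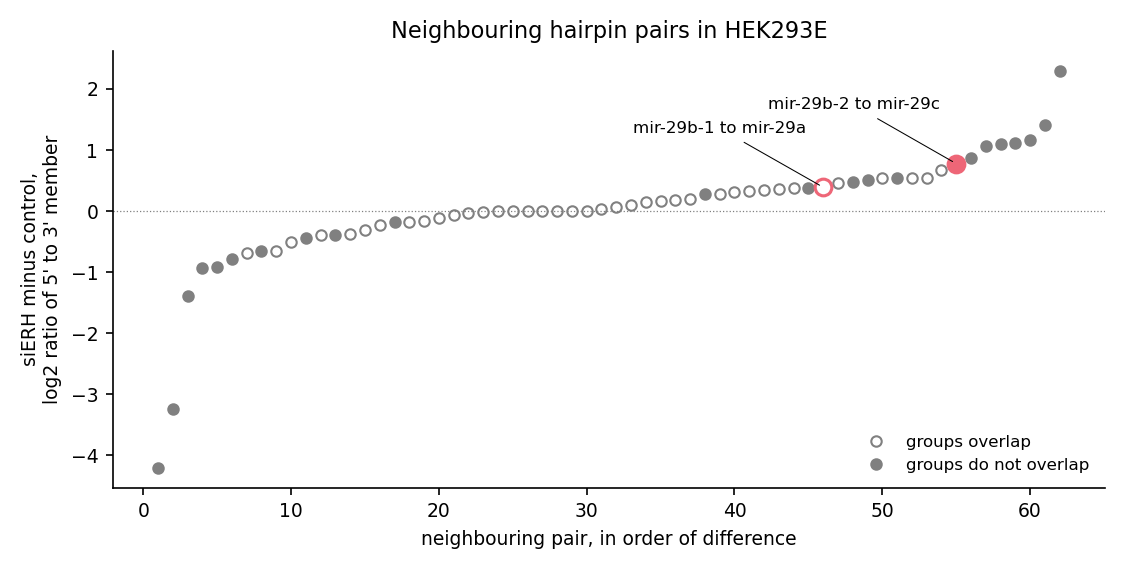
Change of the log2 ratio of the 5′ to the 3′ hairpin (siERH minus control means, HEK293E) for 62 neighbouring pairs in order of their difference. Filled points are pairs whose siERH and control libraries do not overlap, and the miR-29 pairs are ringed in red. The 29b-2 to 29c pair lies at 0.78 among filled points and the 29b-1 to 29a pair at 0.39 with overlapping groups.

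In K562, 29c was lower with siERH-5 and the 29b rows were not. With 1 library per siRNA there was no test, and the intervals cover counting error only. The level of 29c went from 1424 RPM (95% interval 1379 to 1470) with siGFP to 1004 RPM (970 to 1039) with siERH-5. That of 29a was 2361 RPM (2303 to 2421) and 2381 RPM (2328 to 2434), and that of 29b-1 was 1458 RPM (1412 to 1505) and 1900 RPM (1853 to 1947). Thus only 29c was lower in RPM (29a was also lower on the TMM scale), 29a differed by less than its counting error and 29b-1 was higher, with 29b-2 close to 29b-1 at 1455 and 1907 RPM.

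The sign for 29a in K562 depended on the scaling. On TMM-scaled CPM the log2 ratio of siERH-5 to siGFP was -0.79 for 29c, -0.27 for 29a, 0.10 for 29b-1 and 0.11 for 29b-2. On RPM the same ratios were -0.50, 0.01, 0.38 and 0.39. Over all 646 hairpins the median log2 ratio was 0.11 on the TMM scale and 0.37 on library totals, so 29c and 29a were below the median on both. None of the 4 reached 2-fold, which 6.81% of hairpins did downward and 10.1% upward.

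The ratios within the K562 libraries moved in the direction seen in HEK293E. The log2 ratio of 29b-2 to 29c went from 0.03 with siGFP to 0.93 with siERH-5, a difference of 0.89 (95% counting interval 0.81 to 0.98), beside 0.78 in HEK293E. For 29b-1 over 29a it went from -0.70 to -0.33, a difference of 0.37 (0.29 to 0.45), beside 0.39. For 29a over 29c the difference was 0.52 (0.43 to 0.60), beside 0.39. The HEK293E differences pool siERH-3 with siERH-5, whereas K562 had siERH-5 alone. In the single HEK293E siERH-5 library 29b-1 over 29a stood at -0.17, close to -0.24 with each control of its replicate. There 29a over 29c stood at 1.11, beside 0.41 (siGFP) and 0.23 (siControl). For 29b-2 over 29c it was 0.96, beside 0.19 and 0.00. The share of 29c in the family went from 27.2% to 19%, while the family as a whole was at 0.524% and 0.529% of hairpin counts. On TMM-scaled CPM the sum of the family, again counting 29b once, was 5786 with siGFP and 4793 with siERH-5, a log2 ratio of -0.27, so whether the sum differed depended on the scaling. No test of one line against the other was made.

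Between the cell lines, levels depended on the scaling. On RPM each member was lower in the K562 siGFP library than in any HEK293E control: 2361 against 4808 to 6360 for 29a, 1458 against 3042 to 4411 for 29b-1, 1455 against 3104 to 4460 for 29b-2 and 1424 against 3437 to 4110 for 29c. These are log2 ratios of -1.21, -1.34, -1.36 and -1.41 on library totals. Of the 745 hairpins compared, 416 were at least 2-fold lower on that scale and 78 higher, so a decrease of this kind was common. On TMM-scaled CPM the ratios of the members were -0.12, -0.27, -0.30 and -0.34. No member reached the 2-fold difference that 32.6% of 745 hairpins showed downward and 21.2% upward. The 10 most counted hairpins took up 42.8% of the K562 siGFP library and 23.7 to 27.8% of the HEK293E libraries. In the K562 siGFP library 29a was the highest member, an order within a single library that scaling cannot change. There 29c, at 1424 RPM, did not stand apart from the 29b rows, whose counting intervals overlapped its own.

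Hairpin GC content moved with the siERH difference across the hairpins tested, and the miR-29 rows lay below the medians of their GC groups. When 772 hairpins were divided by GC content into 5 groups of like size, the median log2 fold change in HEK293E was 0.76 in the lowest group and 0.30 in the next. In the groups above it was -0.10, -0.17 and -0.18. The lowest group, which holds 29a and both 29b rows, had 84 hairpins called higher and 11 lower, and 29a was one of those 11. The next group, with 29c, had 49 higher and 23 lower. In K562 the medians of these GC groups were 0.52 and 0.00, beside -0.27 for 29a and -0.79 for 29c. The groups were not matched for hairpin level, so the members were not compared with hairpins of like GC content and like level.

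With the GC trend removed in each library the decreases were larger and the 29b rows were called. The trend was fitted over scarce and abundant hairpins with equal weight. The estimates were then -1.34 ± 0.16 for 29a and -1.33 ± 0.15 for 29c (SE; edgeR adjusted p = 0.00018 and 0.00016). It was -0.79 ± 0.18 for each 29b copy (edgeR adjusted p = 0.00736 for 29b-1 and 0.00723 for 29b-2). That fit called 19.3% of hairpins lower and 16.1% higher. With the block as well, the values were -1.31 for 29a, -0.84 for each 29b copy and -1.36 for 29c. The estimates for 29a and 29c were about equal under this correction, whereas without it 29c had the larger one. The correction used the GC content of the annotated hairpins, 64 bases long for 29a and 88 for 29c. From the start of the 5p arm to the end of the 3p arm it was 33.3% for 29a and 41.7% for 29c. Other GC measures were not tried, so the near equality and the 29b calls hold for this measure only.

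**Figure D4:**
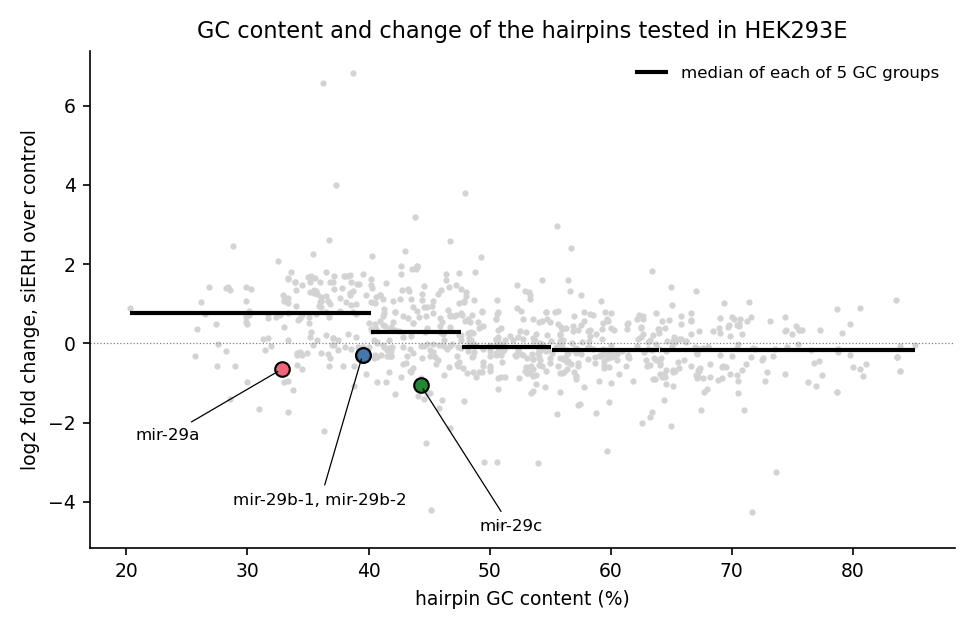
Log2 fold change in HEK293E (siERH over control, edgeR) against hairpin GC content in percent for 772 hairpins, in grey, with the miR-29 members in colour. Black bars are the medians of 5 groups by GC content, from 0.76 at the lowest GC to -0.18 at the highest, and all 4 members lie below the bar of their own group.

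Other settings left 29a and 29c called. On library totals the log2 fold change was -0.47 ± 0.15 for 29a and -0.86 ± 0.14 for 29c (SE; edgeR adjusted p = 0.0296 and 0.00111), where 8.67% of hairpins were lower and 27.4% higher. There the 29b rows stood at -0.09 ± 0.17 each. In replicate 2 alone, 29c was at -1.12 ± 0.15, 29a at -0.56 ± 0.14 and both 29b rows at -0.42 (edgeR adjusted p = 0.0225 for 29b-1 and 0.0233 for 29b-2), with 12.9% of hairpins lower.

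**Figure D5:**
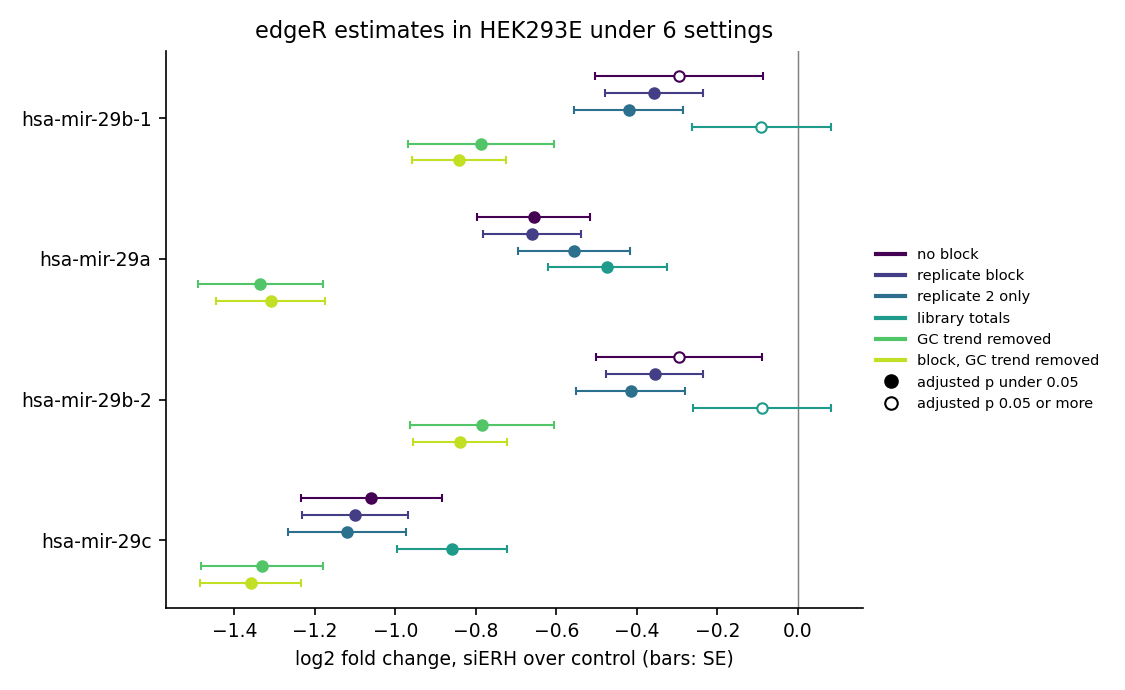
edgeR log2 fold changes of the 4 members in HEK293E (siERH over control) under 6 settings, with SE bars. Filled points have an adjusted p under 0.05 and open points do not. Every estimate is below 0, those of 29a and 29c are filled throughout, and those of the 29b rows are open in the fit on all libraries with neither block nor GC correction and on library totals.

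The hairpins whose profiles were most like those of 29a and 29c were found by the root mean square difference of centred log2 profiles over the 9 libraries, among 416 other hairpins. For 29a they were hsa-mir-1307 (0.13), hsa-mir-1292 (0.15) and hsa-mir-500a (0.17), beside a median of 0.76 over all hairpins. Their log2 fold changes in HEK293E were -0.66, -0.53 and -0.76, next to -0.66 for 29a. For 29c they were hsa-mir-1260b (0.20), hsa-mir-374b (0.25) and hsa-mir-15a (0.27), beside a median of 0.90. Their HEK293E changes were -0.72, -0.73 and -1.28, and their K562 ratios were -0.84, -1.14 and -1.05, next to -0.79 for 29c. The profiles of 29a and 29c differed from each other by 0.31. The named hairpins were picked for their likeness over these same libraries, so their changes resemble those of 29a and 29c by choice. hsa-mir-500a, hsa-mir-1260b and hsa-mir-374b have close relatives among the hairpins, with which reads may be shared.

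miR-29 is among the miRNAs known to be lowered by the transcription factor MYC, and other hairpins of that textbook list were examined beside it. Of the 18 listed, all tested, 1 was lower, 0 were higher and 17 did not pass edgeR's test, beside 16.2% lower and 23.8% higher over all hairpins tested. Their median log2 fold change was -0.02, beside -0.01 over all 773 hairpins. The lower one was hsa-mir-15a, the miR-15/16 family member known for lowering BCL2, at -1.28 ± 0.20 (SE; edgeR adjusted p = 0.000768), from 8321 ± 1189 RPM (SD, n = 4) to 3961 ± 260 RPM (SD, n = 3). The largest positive estimate was that of hsa-mir-150, at 0.59 ± 0.50 (SE; edgeR adjusted p = 0.378), with 3.92 RPM in the controls. With the replicate block hsa-mir-30d also passed, at -0.43 (edgeR adjusted p = 0.0202). The 18 rows are not independent: hsa-mir-26a-1 and hsa-mir-26a-2 held nearly the same level in the controls (5318 and 5333 RPM). MYC itself was not measured, and its part was not tested.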

How the data were processed

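The authors deposited raw counts per miRNA hairpin, with blank cells read as 0, and an RPM table. The deposited RPM equalled the count plus 1 over the library total plus 1 per hairpin, per 1000000, within a relative 4.9e-08. Per the submitters' processing notes cutadapt, Bowtie2, bedtools and hg38 were used. Versions, the miRNA annotation and the handling of reads that fit several hairpins are not given in the sources used here. Per the labels, fragments of 18 to 30 nt from 10 µg of total RNA with 30 spike-in RNAs were sequenced, with random nucleotides in the adapters. No source used here says if molecules were counted, so intervals cover counting error only. Hairpin arms were not separated.

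Counts were tested with edgeR 4.0.16 in R 4.3.3 (quasi-likelihood test, TMM, mean count of 10 or more, Benjamini-Hochberg over all hairpins tested, threshold 0.05) in the HEK293E libraries, 3 siERH against 4 control. SE is the log2 fold change over the square root of F. CPM and K562 log2 ratios used a pseudocount of 1. Ratios within libraries used scipy 1.17.1. Intervals are exact Poisson for levels and 95% Wilson for shares. A count of 0 would allow 1.2 to 1.53 RPM (3 counts). On simulated data for the HEK293E comparison with 773 hairpins, 136 of 200 changed 2-fold were called (68%), none with the wrong sign. There 7 unchanged ones were called, and 0 when none changed. The simulated libraries were drawn independently, without the correlation between same-numbered libraries given below, so these rates may not hold for the real ones.

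Replicate numbers, which match the labels' experimental groups, were taken to pair the libraries: deviations of same-numbered libraries correlated at r = 0.463 to 0.672 across hairpins. Alternatives were a replicate block, library totals, DESeq2 1.42.0, limma 3.58.1 on log2(RPM + 1), other count filters, summed copies, replicate 2 alone, each library left out, and a trend on GC content removed per library. GC content and positions came from GENCODE 29 (1480 of 1485 hairpins matched by name), and sequences from RefSeq (1168 matched). The members were fixed by name, and the lists and tests were chosen with earlier results of these data known. Named beside the members are the 3 hairpins nearest in profile to 29a and to 29c among those with a mean count of 100 or more, the ends of the MYC list, and, chosen after their values were seen, the extreme neighbouring pairs and hsa-mir-30d. Of the fixed marker list, hsa-mir-486-1 stood at 900 to 1507 RPM in HEK293E and 19880 to 21010 in K562, hsa-mir-142 at 80.0 to 370 and 65950 to 66660, hsa-mir-223 at 0.615 to 9.96 and 12410 to 13190, and those of epithelium, nerve, muscle and liver are not used further.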

Additional observations from a re-analysis of the deposited data

Results flagged for a closer look

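The 29b rows had estimates of opposite sign in the cell lines. In HEK293E all 3 siERH libraries were below both controls of their replicate, whereas in K562 the log2 ratio of siERH-5 to siGFP on TMM-scaled CPM was 0.0987 for hsa-mir-29b-1 and 0.107 for hsa-mir-29b-2, each just under the median of 0.112 over all hairpins on that scale. The 29b rows did not pass the HEK293E test without the block. The difference between the lines was not tested, K562 has 1 library per siRNA, and the rows share their reads. No library was flagged as apart from its group for any member among the 8 sets of values examined. The HEK293E groups hold 3 or 4 libraries, too few for such a check to say much.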

How the results depend on the processing

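In the HEK293E comparison hsa-mir-29a and hsa-mir-29c kept a negative sign and passed the threshold in each of 17 alternatives (edgeR, DESeq2 or limma adjusted p of at most 0.0382 and 0.0107). The 29b rows kept a negative sign in all 17 and passed in 4: with the replicate block (-0.357 for 29b-1 and -0.356 for 29b-2), in replicate 2 alone (-0.420 and -0.415), with the GC trend removed (-0.787 and -0.786) and with both block and GC correction (-0.841 and -0.840). The replicate block changed no other call of a member. Over all hairpins 16.2% were lower and 184 hairpins (23.8%) higher. On library totals 67 were lower (8.67%), with limma 66, and with a minimum mean of 100 counts 63, against 82 higher. Leaving out 1 library gave 76 to 130 lower and 136 to 189 higher, the lower count being 77 without siERH-3 replicate 1 and 76 without siERH-3 replicate 2. The lower share of calls was 40.5%, against 24% on library totals (median of all hairpins shifted by 0.20), 23.7% with limma, 54.6% with the GC trend removed and 52.1% with the block as well. Between the control siRNAs, 0 calls became 2 lower and 2 higher with DESeq2 and with no filter, 61 lower and 72 higher with the replicate block, and 0 to 1 higher with 1 library left out. The ratio of 29b-2 to 29c differed by 0.721 centred on the replicate, 0.703 in replicate 2 alone and 0.671 to 0.849 with 1 library left out. The smallest exact permutation p of these designs is above 0.05. Centring took off the mean of all libraries of a replicate, so 0.721 is not the estimate of a fit with a block. In K562, 44 hairpins were at least 2-fold lower and 65 higher. These became 23 and 109 on library totals, 24 and 120 on RPM, 21 and 15 with a pseudocount of 10, and 20 and 20 with a minimum mean of 100 counts. Between the cell lines, 243 lower and 158 higher became 416 and 78 on library totals, and 155 lower with a pseudocount of 10. Where no alternative's construction shows it, the cause was not tested. K562 has a single library per group and HEK293E a single siERH-5 library, and counting intervals there cover depth alone.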
